A study of Mus musculus with 6 samples.

Results

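Sgk1, a serum and glucocorticoid regulated kinase, was examined together with its relative Sgk3, the glucocorticoid receptor gene Nr3c1 and 5 genes that the receptor commonly controls, Fkbp5, Tsc22d3, Per1, Klf9 and Zbtb16. These 8 genes, of 22180 measured, were chosen by name, with earlier results of these data known. Each had a single probe set that carries its symbol alone, so the rule of taking a gene's brightest probe set had nothing to decide. Sgk1 itself was picked from earlier results of these data, in which it had a lower value with the siRNA, so its values are a description and carry no test. The cells were C2C12, a single mouse myoblast line grown in the standard medium recommended by its supplier. One group of 3 arrays came from cells transfected with an siRNA pool against Htt, the mouse huntingtin gene; its sample titles say HTT KO, while the protocol describes siRNA. The other group of 3 arrays came from cells transfected with scramble siRNA. The labels mention no added glucocorticoid, give no time after transfection, and do not say whether replicates were separate cultures, so p-values measure only the spread between these arrays, which may be technical.

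The glucocorticoid receptor is a nuclear receptor that waits in the cytoplasm in a complex with heat shock protein chaperones and binds DNA once it has bound hormone. It often binds as a dimer to a palindrome of a pair of 6-base arms separated by a short spacer, the glucocorticoid response element, and its targets include feedback inhibitors such as Fkbp5. In skeletal muscle glucocorticoids are known for promoting wasting, and the kinase encoded by Sgk1, which is activated downstream of PI3 kinase, PDK1 and mTOR complex 2, restrains FOXO transcription factors.

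The promoter sequences below are shown because Sgk1 had the largest difference between the groups among these genes and carries the receptor's full palindrome near 1 of its start sites. RefSeq (GRCm38.p6) gave 13 windows of the 250 bases before a transcription start for 5 of the 8 genes, namely 6 for Sgk1, 3 for Tsc22d3, 2 for Per1 and 1 each for Fkbp5 and Klf9. Entries for Sgk3, Nr3c1 and Zbtb16 were missing. The windows were searched for the palindrome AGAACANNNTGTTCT, which reads the same on both strands, and for its arm TGTTCT on either strand. Each palindrome also holds an arm on each strand. The motifs were settled with the expression values known, after looser and unrelated motifs had been searched too. Capitals mark these matches, and each sequence is written 5' to 3' on the strand of its gene.
Sgk1, chr10:21993640-21993889, plus strand: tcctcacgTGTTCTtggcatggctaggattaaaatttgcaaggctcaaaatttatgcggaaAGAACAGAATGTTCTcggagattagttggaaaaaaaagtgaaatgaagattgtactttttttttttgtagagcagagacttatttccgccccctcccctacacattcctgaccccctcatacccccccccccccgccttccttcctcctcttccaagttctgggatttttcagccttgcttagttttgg
Tsc22d3, chrX:140600523-140600772, minus strand: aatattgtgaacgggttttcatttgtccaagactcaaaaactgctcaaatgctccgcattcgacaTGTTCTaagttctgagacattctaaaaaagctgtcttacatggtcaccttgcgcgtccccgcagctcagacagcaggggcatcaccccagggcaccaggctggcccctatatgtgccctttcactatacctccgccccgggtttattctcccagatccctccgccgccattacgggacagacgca
Fkbp5, chr17:28486150-28486399, minus strand: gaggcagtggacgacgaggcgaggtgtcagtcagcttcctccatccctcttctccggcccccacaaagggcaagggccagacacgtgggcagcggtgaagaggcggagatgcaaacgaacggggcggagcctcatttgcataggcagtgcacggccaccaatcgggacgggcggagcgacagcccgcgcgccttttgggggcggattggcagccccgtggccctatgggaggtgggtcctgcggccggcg
The Sgk1 window held the palindrome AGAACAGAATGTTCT at bases -189 to -175 from that start site, and a further arm at base -242. Of 32851 windows of the same length over all genes in the table, 3 held the palindrome (0.00913%) and 5284 held the arm (16.1%). The other genes with the palindrome were Acnat2 and Gm35041. Acnat2 had a log2 fold change of 0.04 ± 0.09 (moderated standard error, SE). Its mean log2 level of 1.88 was below the median of all gene means, 2.95, which limits what its value can show. Gm35041 was not measured under a symbol of its own. Among the other 5 Sgk1 windows 2 held an arm, starting at base -195 and, on the opposite strand, at base -13. Tsc22d3, which encodes the glucocorticoid-induced leucine zipper protein, had an arm in 1 of its 3 windows, the one shown, at base -185. In the Fkbp5 window, as in those of Per1 and Klf9, neither string of letters was found, which says nothing about sites elsewhere. The looser palindrome GAACANNNTGTTC was in 13 windows of all genes (0.0396%), of which 1 was the Sgk1 window shown, and its arm TGTTC, on either strand, in 36.2% of all windows and in 4 of Sgk1 and 2 of Tsc22d3. The cyclic AMP element TGACGTCA was in 0 of the 13 windows of these genes and 1.55% of all. The E-box CACGTG, which clock factors bind, was in 6.02% of all windows and in 1 window each of Sgk1, Fkbp5 and Per1. The Sgk1 probe set gives 1 value for the gene, so which start site was used was not measured.

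Expression is given as the deposited log2 RMA values, in which a difference of 1 is a 2-fold change, and all differences are Htt siRNA minus scramble. Htt, the targeted gene, was lower in all 3 siRNA arrays (-1.10 ± 0.09, limma adjusted p = 0.0559). Limma called 0 of 22180 genes at an adjusted p under 0.05 (0.0%), while 2409 genes (10.9%) reached an unadjusted p under 0.05, split into 1269 higher (5.72%) and 1140 lower (5.14%). After each array was centred on its median that split was 911 higher and 1465 lower. The groups did not overlap for 3544 genes (16.0%), 2233 of them higher (10.1%) and 1311 lower (5.91%). All 8 myoblast markers examined, among them Myod1 and the intermediate filament gene Des, lay above the median gene mean of 2.95. Their summed log2 level was 58.77 to 59.5 with siRNA and 56.53 to 58.66 with scramble. Of the 8, 4 did not overlap, all higher with siRNA: Myod1 (0.66 ± 0.27), Cdh15, Itga7 and Des. Another 2 were lower with overlapping groups, Msc (-0.40 ± 0.19) and Pax7 (-0.07 ± 0.16). Of 5 markers each, 0 of the adipocyte and endothelial lists lay above the median gene mean. In the fibroblast, macrophage and neuron lists 2 each lay above it. The summed log2 level of the 5 adipocyte markers was 12.11 to 12.84 with siRNA and 11.63 to 11.73 with scramble, and that of the 5 endothelial markers was 11.56 to 12.22 and 11.48 to 11.54. Cidec, a lipid droplet gene, had the largest adipocyte difference (0.52 ± 0.12), and the other 4 lay between 0.03 and 0.10. The part of these marker lists in the results was not tested.

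Sgk1 was the member that differed most. Replicates 1, 2 and 3, an order kept for all values that follow, stood at log2 levels of 5.36, 5.78 and 5.51 with siRNA and 6.44, 6.65 and 6.51 with scramble. Every siRNA array lay below every scramble array, with a gap of 0.66 between the nearest arrays, and siRNA replicate 2 was the closest to the controls. The siRNA arrays held 44.2%, 59.4% and 49.1% of the scramble mean. From 6.53 ± 0.11 with scramble to 5.55 ± 0.22 with siRNA (SD, n = 3 each), the log2 fold change was -0.98 ± 0.13, a 1.98-fold lower level, which ranked 113 of 22180 genes by absolute difference. When single arrays were left out it ranged from -1.10 (siRNA replicate 2 omitted) to -0.89 (siRNA replicate 1 omitted). In bulk RNA, fewer cells expressing a gene and less RNA per cell cannot be told apart.

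Sgk3, which encodes a relative of the kinase that is recruited to endosomes by a lipid-binding domain, stood below the median gene mean. Its values were 2.83, 2.77 and 2.68 with siRNA and 2.82, 2.93 and 2.92 with scramble, so that siRNA replicate 1 lay just above scramble replicate 1 and the groups overlapped. At -0.13 ± 0.09 (95% confidence interval -0.33 to 0.07; limma adjusted p = 0.621), it did not pass. Sgk2, the third kinase of the family, was also below the median gene mean, with a difference of -0.09 ± 0.11.

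Nr3c1, the receptor gene, was level across the arrays. It stood at 6.83, 6.75 and 6.69 with siRNA and 6.66, 6.80 and 6.68 with scramble, the narrowest range of the 8 genes (0.17 log2 units). The difference of 0.05 ± 0.09 (limma adjusted p = 0.882) had a 95% confidence interval of -0.16 to 0.25. Nr3c2, the related mineralocorticoid receptor gene, lay below the median gene mean and differed by 0.07 ± 0.11.

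**Figure D1:**
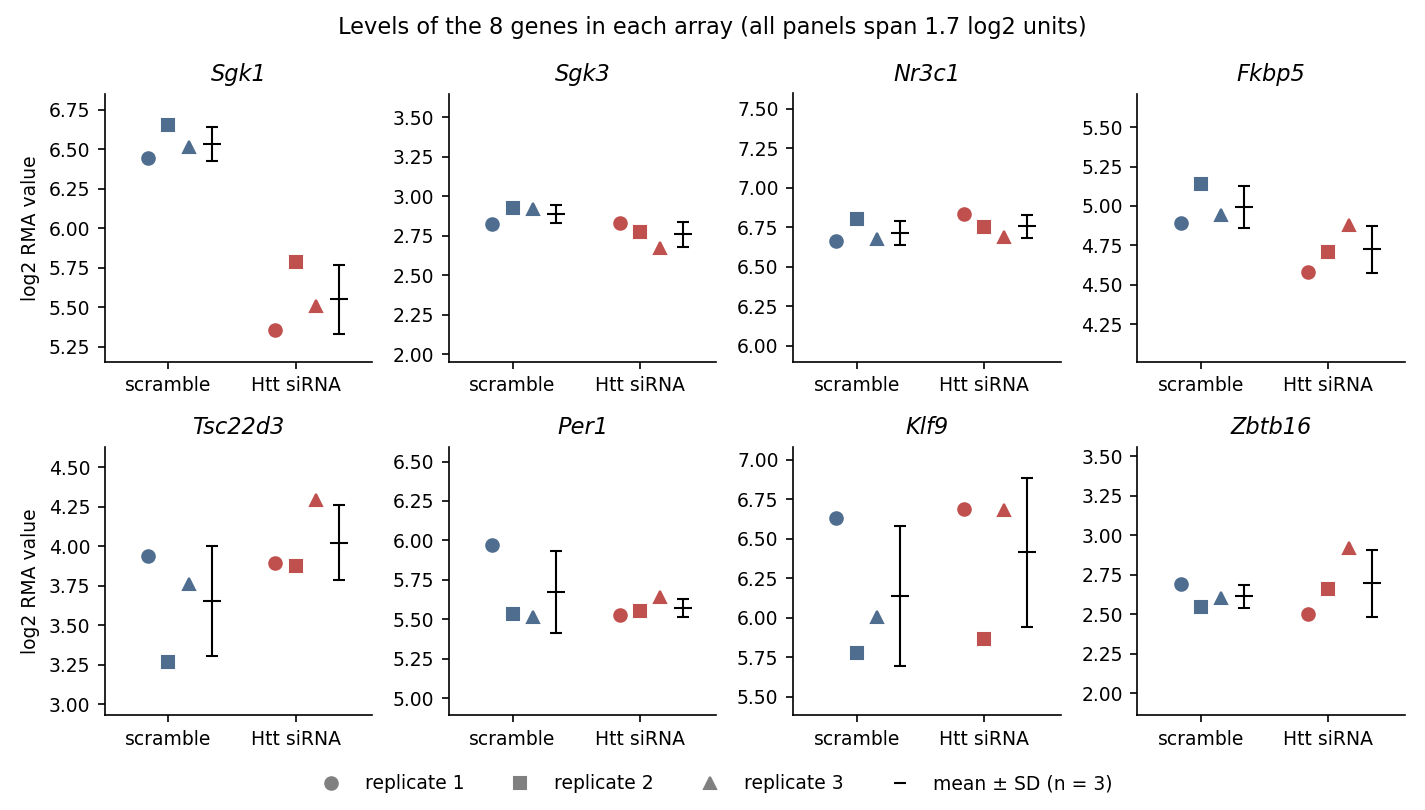
Log2 RMA value (y axis) of each of the 8 genes in the 3 scramble and 3 Htt siRNA arrays; symbols mark the replicate and black bars the mean ± SD, and every panel spans the same number of log2 units. Sgk1 separates the groups by a wide gap and Fkbp5 by 0.01, while the other 6 genes overlap.

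Among the receptor's targets, Fkbp5 was lower and the others did not separate the groups. Fkbp5 encodes a co-chaperone that lowers the receptor's affinity for hormone. Its levels were 4.58, 4.71 and 4.88 with siRNA and 4.89, 5.14 and 4.94 with scramble. The groups did not overlap, but siRNA replicate 3 and scramble replicate 1 were 0.01 apart. Fkbp5 averaged 83.1% of the scramble level (-0.27 ± 0.11, 95% confidence interval -0.53 to -0.01), with a limma adjusted p = 0.447 that did not pass. Thus 2 of the 8 genes, Sgk1 and Fkbp5, did not overlap between the groups, both lower, beside 16.0% of all genes (5.91% lower), and 0 passed at the adjusted threshold. Since the choice of Sgk1 used that comparison, nothing is read from the count.

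Tsc22d3, whose product binds inflammatory transcription factors, had the largest positive difference of the 8. It stood at 3.89, 3.88 and 4.29 with siRNA and 3.94, 3.27 and 3.76 with scramble. Scramble replicate 1 lay above siRNA replicates 1 and 2, so the groups overlapped, and scramble replicate 2 was the lowest array. The difference was 0.37 ± 0.19 (limma adjusted p = 0.527), and it was 0.17 without scramble replicate 2. Its sign was thus opposite to that of Sgk1 and Fkbp5.

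Per1 encodes a repressor of the circadian clock that glucocorticoids induce in many tissues. It stood at 5.53, 5.55 and 5.64 with siRNA and 5.97, 5.54 and 5.51 with scramble. Scramble replicate 1 stood alone at the top, and the other 5 arrays lay between 5.51 and 5.64. The value of -0.10 ± 0.13 (limma adjusted p = 0.82) turned to 0.05 without that array.

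Klf9 encodes a zinc finger repressor that is induced by glucocorticoids and thyroid hormone. Its arrays fell into a high and a low set in both groups, at 6.69, 5.87 and 6.69 with siRNA and 6.63, 5.78 and 6.003 with scramble. Htt siRNA replicates 1 and 3 and scramble replicate 1 stood high and the remaining arrays low, so the spread within each group (SD 0.47 and 0.44) exceeded the difference between them (0.28 ± 0.28, limma adjusted p = 0.755). That difference was 0.55 if siRNA replicate 2 was left out and 0.10 if scramble replicate 2 was.

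Zbtb16 encodes the zinc finger protein PLZF, a strongly hormone-induced gene in several cell types. It lay below the median gene mean, at 2.50, 2.66 and 2.92 with siRNA and 2.69, 2.55 and 2.601 with scramble. The groups overlapped and the difference was 0.08 ± 0.12 (limma adjusted p = 0.843), with -0.03 without Htt siRNA replicate 3.

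**Figure D2:**
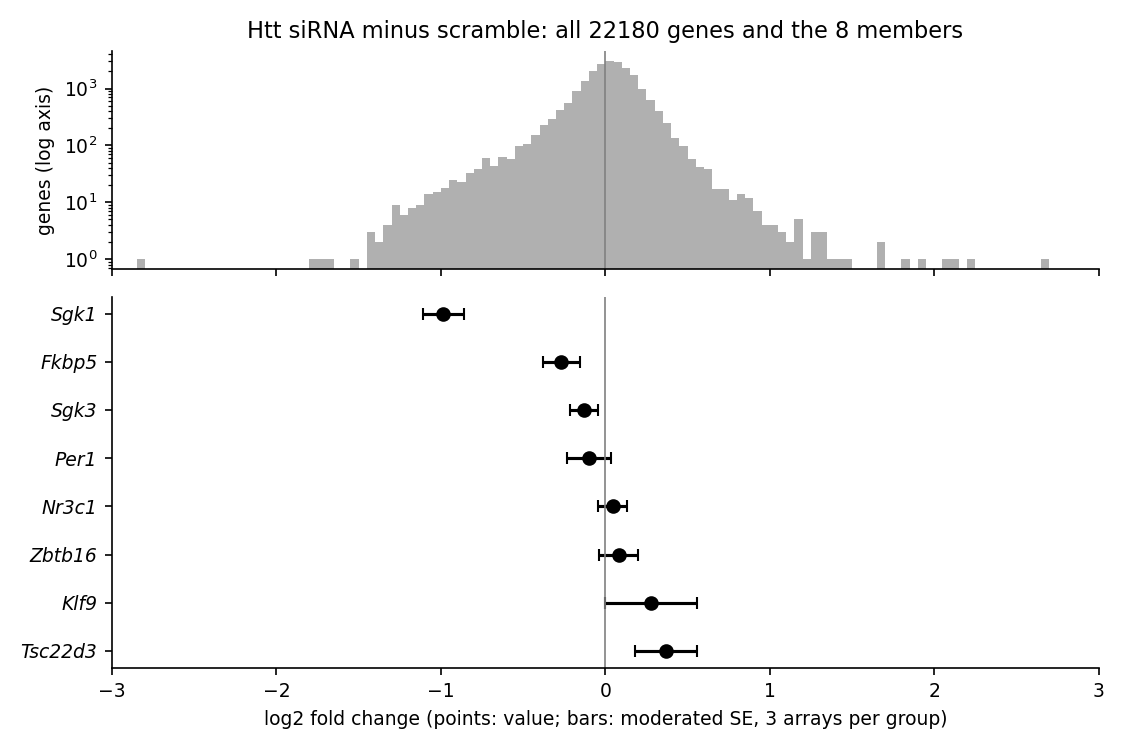
Upper panel, number of genes (log axis) by log2 fold change, Htt siRNA minus scramble, for all 22180 genes; lower panel, the log2 fold changes of the 8 genes with their moderated SE on the same x axis. Sgk1 stands at -0.98, and the other 7 genes lie between -0.27 and 0.37.

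The 8 genes did not share a direction: 4 differences were negative and 4 positive, with a median of -0.03 beside 0.03 over all genes. Likeness to Sgk1 was measured as the root mean square difference between the deviations of 2 genes from their own 6-array means. Fkbp5 was the nearest of the other members at 0.38 log2 units, and Klf9 the farthest at 0.81. Over 10482 named genes above the median gene mean, the most similar were Haus1, a subunit of the spindle complex augmin (0.10), the telomere protein gene Tinf2 (0.13), the DNA damage mediator gene Mdc1 (0.13), Nmnat2, an enzyme of NAD synthesis (0.14), and Foxm1, a transcription factor of mitotic genes (0.14). Their differences ranged from -0.86 ± 0.15 for Haus1 to -0.73 ± 0.14 for Nmnat2. Since these genes were chosen for the closeness of their values to those of Sgk1, their shared array order is a description alone.

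**Figure D3:**
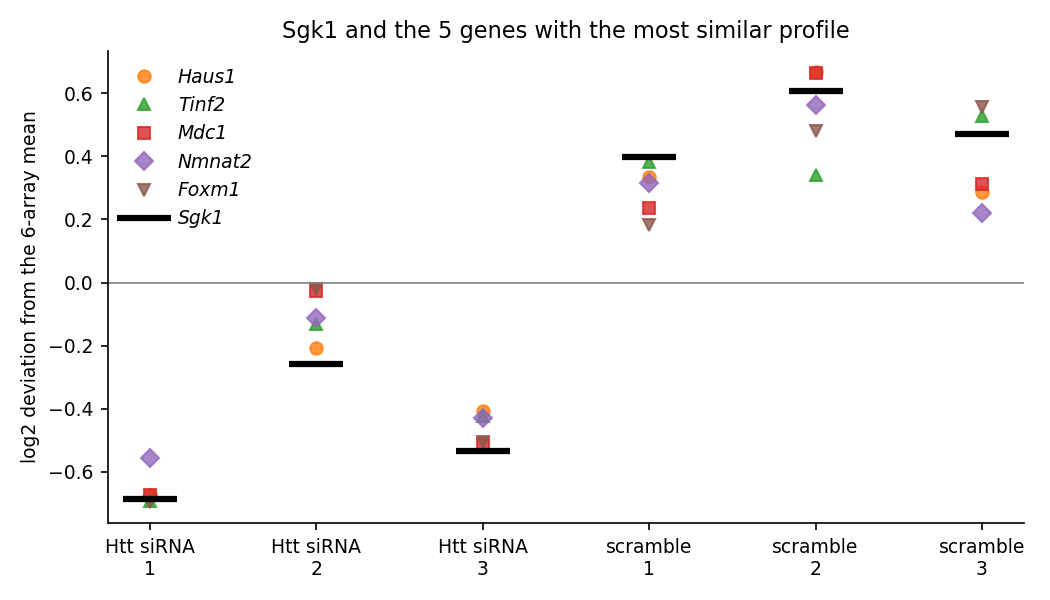
Deviation from the gene's own 6-array mean (log2, y axis) in each array (x axis) for Sgk1, drawn as black bars, and the 5 genes with the smallest root mean square difference from it. All 6 genes are below 0 in the siRNA arrays and above 0 in the scramble arrays, as the choice of the 5 favours.

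Klf9 and Tsc22d3 were highest in the same arrays as a list of stress genes, as the plot of deviations by array shows. The list holds 19 measured genes of the unfolded protein and integrated stress response, such as the chaperone gene Hspa5 and the transcription factor gene Ddit3. Averaged over its genes, the list deviated from the 6-array mean by 0.69, -0.97 and 0.75 with siRNA and by 0.85, -0.89 and -0.43 with scramble. Klf9 deviated by 0.41, -0.41 and 0.41 and by 0.36, -0.50 and -0.27. Both were thus above their means in the same 3 arrays. Tsc22d3 was also higher in those 3 arrays (3.895 to 4.294) than in the others (3.266 to 3.877), by a narrow margin. The other 6 members overlapped between these sets. The share of all genes that separate the sets was not counted. Since the sets were drawn from these same arrays, nothing is read from the number of members that separate them. An alternative fit, chosen after seeing the data, took the list's level as a covariate. In it the Klf9 difference was 0.12 in place of 0.28, and that of Tsc22d3 was 0.30 in place of 0.37. That of Sgk1 was -0.93 in place of -0.98. The list's mean deviation itself differed between the groups, at 0.16 with siRNA and -0.16 with scramble. The part of the stress level in these differences was not tested. Ndrg1, which encodes a substrate of the SGK kinases, was chosen after its values were seen. It was high and low in the same arrays as Klf9, at 9.57, 8.41 and 9.64 with siRNA and 9.55, 8.14 and 8.74 with scramble. How many other genes shared that order was not counted. The mean deviation of 38 partners of the SGK kinases was 0.044, -0.02 and 0.009 with siRNA and 0.049, -0.127 and 0.045 with scramble.

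**Figure D4:**
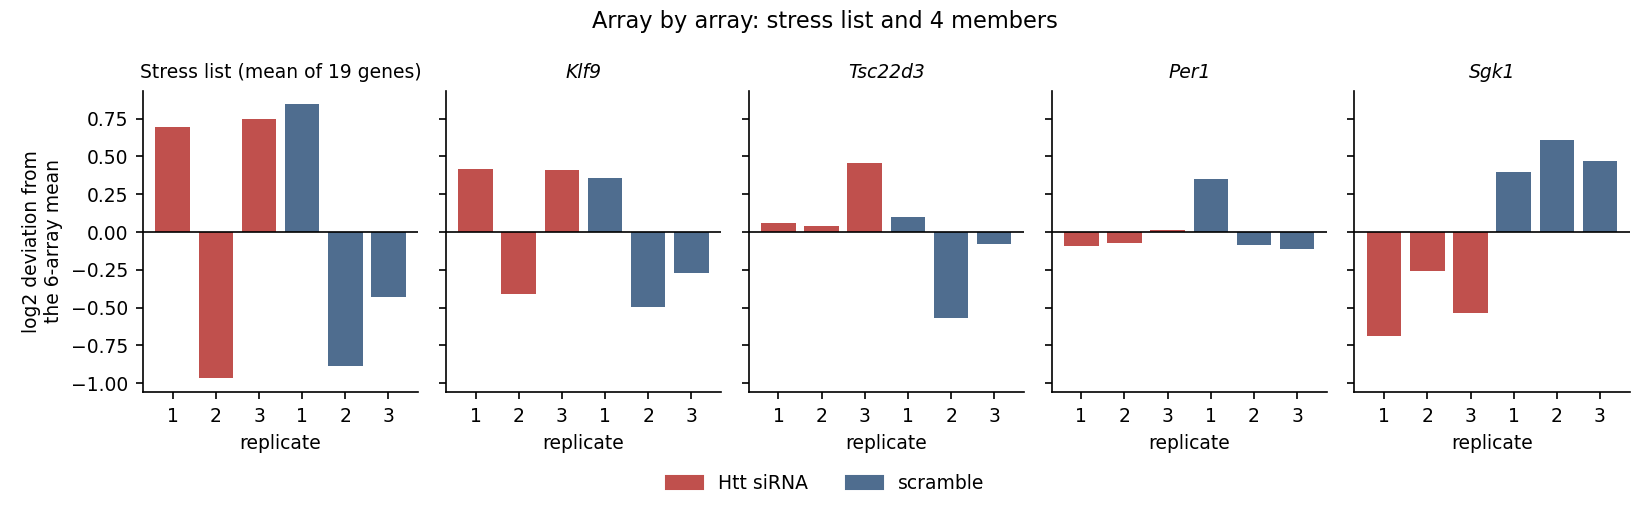
Deviation from the 6-array mean (log2, y axis) in Htt siRNA (red) and scramble (blue) replicates 1 to 3 (x axis) for the mean of the stress list and for Klf9, Tsc22d3, Per1 and Sgk1. Klf9 and, by a smaller margin, Tsc22d3 are highest in the 3 arrays where the stress list is above 0, and Sgk1 is below 0 in the siRNA arrays alone.

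Lists of S phase and contractile genes also differed between the groups on average and are given beside the Sgk1 values. Both lists were chosen with earlier results of these data known, so their counts are a description alone. Of 19 S phase genes, 15 were lower at an unadjusted p under 0.05, beside 5.14% of all genes. That count was 4 when siRNA replicate 1, siRNA replicate 3 or scramble replicate 2 was left out, and 7 when scramble replicate 3 was. The list's mean deviation was -0.93, 0.29 and -0.69 with siRNA and 0.09, 0.73 and 0.52 with scramble. Of 19 contractile genes, 17 were higher by the same measure, beside 5.72% of all genes, and 13 to 17 were with single arrays left out. Their mean deviation was 0.81, 0.02 and 0.64 with siRNA and -0.42, -0.75 and -0.29 with scramble. In both lists siRNA replicate 2 lay nearest to the controls, as it did for Sgk1. In the S phase list it lay above scramble replicate 1, so the groups overlapped there. Limma's adjusted threshold was passed by 0 genes of either list, and their part in the Sgk1 difference was not tested.

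Further genes that glucocorticoids control in muscle or other tissues showed no common direction. Of 43 measured among 45 listed, 0 passed limma's adjusted threshold, 5 (11.6%) had a lower value at an unadjusted p under 0.05 and 2 (4.65%) a higher one, beside 5.14% and 5.72% of all genes. Their median difference was -0.03, with 23 negative and 20 positive. With siRNA replicate 2 omitted, 9 were lower and 5 higher, and with siRNA replicate 3 omitted 4 were lower and 0 higher. Lower were Pdk4, the kinase that shuts off pyruvate oxidation (-0.64 ± 0.19), the stress kinase gene Map3k6 (-0.46 ± 0.13) and Angptl4, an inhibitor of lipoprotein lipase (-0.40 ± 0.10). Angptl4 stood at 6.02, 6.09 and 6.02 with siRNA and 6.30, 6.62 and 6.41 with scramble, with no overlap. Crispld2, a secreted protein gene that is a receptor target in airway muscle, was higher (0.30 ± 0.10) but lay below the median gene mean. Of the remaining 3, named after their values were seen, the AMP deaminase gene Ampd3 (-0.44 ± 0.16) and the junction protein gene Cgnl1 (-0.27 ± 0.09) were lower, and the atrophy ubiquitin ligase gene Fbxo32 was higher (0.56 ± 0.19).

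**Figure D5:**
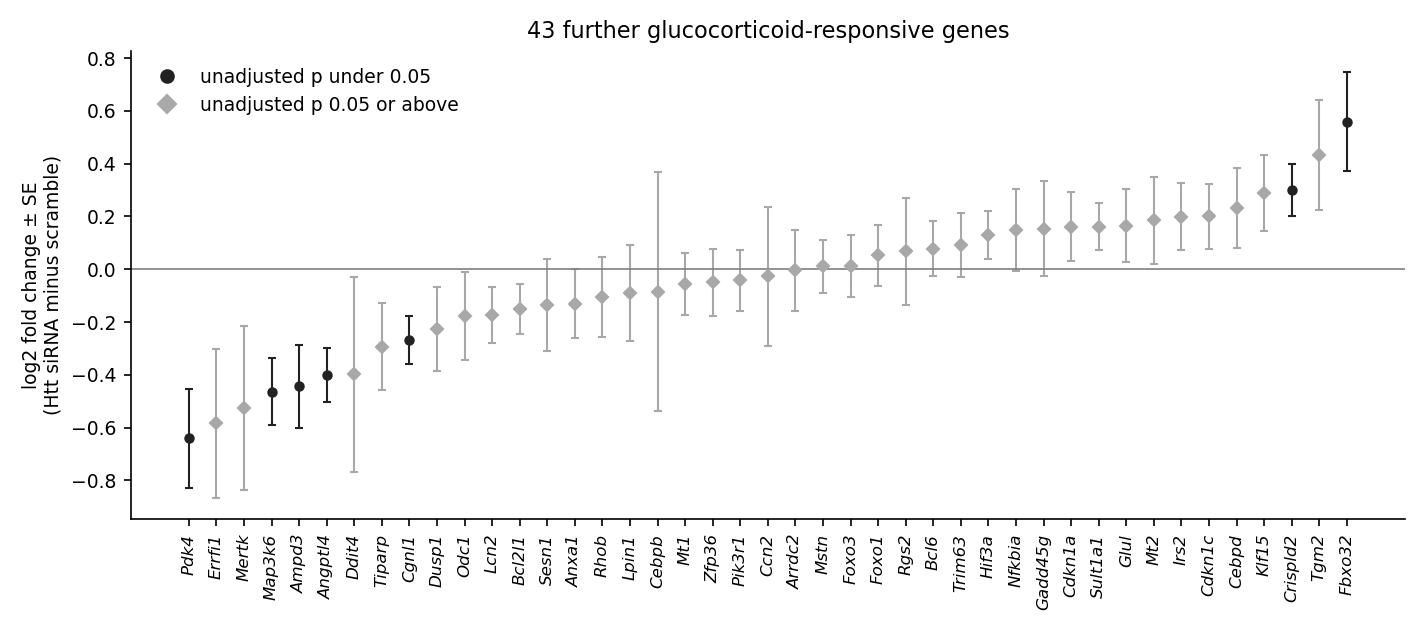
Log2 fold change with its moderated SE (y axis, Htt siRNA minus scramble) of 43 further glucocorticoid-responsive genes (x axis), in order of the value; dark circles mark an unadjusted p under 0.05. The 5 dark circles below 0 and 2 above 0 are spread over a range from -0.64 (Pdk4) to 0.56 (Fbxo32).

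The receptor's chaperones and cofactors gave few differences. Of 28 measured, 0 passed the adjusted threshold and 1 (3.57%) was lower at an unadjusted p under 0.05, beside 5.14% of all genes. With each array centred on its median 3 were lower. The 1 gene was Smarca4, the ATPase of a chromatin remodelling complex that the receptor recruits, at 7.61, 7.75 and 7.57 with siRNA and 7.88, 7.94 and 8.05 with scramble (-0.31 ± 0.09, limma adjusted p = 0.366). The count of lower members was 8 with siRNA replicate 2 omitted, 3 with scramble replicate 1 omitted and 2 with scramble replicate 3 omitted; that of higher members was 1 with either of the first 2 omitted. The median of the list was -0.08, with 19 of 28 values negative.

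Among 38 measured upstream and downstream partners of the SGK kinases, 0 passed limma's adjusted threshold. At an unadjusted p under 0.05, 3 (7.89%) were lower and 3 (7.89%) higher, shares near the 5.14% and 5.72% of all genes. With each array centred on its median, 5 were lower and 1 higher. The PI3 kinase catalytic subunit gene Pik3cb was lower (-0.65 ± 0.15), at 4.77, 4.96 and 4.51 with siRNA against 5.25, 5.62 and 5.31 with scramble. Pik3ca, which encodes another catalytic subunit, was higher (0.25 ± 0.09). Deptor, an inhibitor of mTOR complexes, was lower (-0.36 ± 0.12), and Klhl3, an adaptor for degradation of WNK kinases, was higher (0.22 ± 0.08) but below the median gene mean. Named after their values were seen, the scaffold gene Slc9a3r1 was lower (-0.50 ± 0.19) and Ndrg3, a relative of Ndrg1, higher (0.25 ± 0.10). The number of lower members was 5 with siRNA replicate 2 omitted and 1 when siRNA replicate 1, siRNA replicate 3 or scramble replicate 3 was. That of higher members was 1 with siRNA replicate 1 omitted and 0 with scramble replicate 2 omitted.

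Clock genes and relatives of the members added little to Per1 and the other targets. Of 18 clock genes, 1 (5.56%) was lower at an unadjusted p under 0.05, beside 5.14% of all genes (Timeless, which mainly serves DNA replication in mammals, -0.57 ± 0.22), and the median was -0.03. The count of lower clock genes was 3 with siRNA replicate 2 omitted and 0 with scramble replicate 2 or 3 omitted, and that of higher ones reached 2 with scramble replicate 3 omitted and 1 with scramble replicate 1 omitted. Scramble replicate 1, the array with the highest Per1, also had the highest level of the clock list (0.17 above the 6-array mean). Of 21 relatives of the members, 1 (4.76%) was higher, beside 5.72% of all genes (Fkbp14, a folding enzyme of the endoplasmic reticulum in the family of Fkbp5, 0.48 ± 0.12) and 0 lower. The count was 2 higher if siRNA replicate 1, siRNA replicate 2 or scramble replicate 1 was omitted, and 1 lower if siRNA replicate 2 was.

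Sgk1 is also induced by serum and by osmotic stress. Of 17 measured genes of these responses, 3 (17.6%) were lower and 1 (5.88%) higher at an unadjusted p under 0.05, beside 5.14% and 5.72% of all genes, and 0 passed limma's adjusted threshold. With each array centred on its median the higher count was 0. The immediate early gene Ier3 stood at 5.91, 6.12 and 6.56 with siRNA and 6.76, 7.02 and 6.94 with scramble, a difference of -0.71 ± 0.17 with no overlap. Ier2, another immediate early gene, was lower (-0.48 ± 0.16), as was Nfat5, the transcription factor of the osmotic response (-0.37 ± 0.14), while Srf, the factor that binds serum response elements, was higher (0.31 ± 0.13). The lower count was 1 with siRNA replicate 1 omitted and 5 with siRNA replicate 2 omitted, and the higher count was 0 in 4 of the 6 fits that left out an array, those keeping both siRNA replicate 2 and scramble replicate 3.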

How the data were processed

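RNA of 6 C2C12 samples was hybridised to Affymetrix arrays, 3 per group by the sample titles. The authors deposited 1 table of log2 values for 41345 probe sets; RMA and the affy package are named per the submitters' processing notes, without versions, and the genome build is not given in the sources used here. RMA's quantile step forces a common distribution, so differences in total RNA are lost, and it compresses weak signals. Of the 25335 probe sets in the platform annotation, 23521 had 1 gene symbol and 1814 several; the brightest single-symbol probe set stood for each of 22180 genes, with no filter. Groups were compared with limma 3.58.1 in R 4.3.3 (lmFit, eBayes, two-sided, Benjamini-Hochberg over all genes, threshold 0.05), tested on simulated data. Array number limits precision. Tables and plots used Python 3.11.15, pandas 2.3.3 and matplotlib 3.10.9. Members and gene lists were chosen with earlier results of these data known. The naming rule gives all 8 members and, per further list, genes past the adjusted threshold or up to 4 with the smallest unadjusted p under 0.05, and the 5 genes most like Sgk1. Older symbols were matched through RefSeq synonyms. No label says that arrays of the same number are pairs, so the main fit took no pairing. Deviations from group means correlated with r of 0.465, 0.478 and 0.012 between arrays of the same number. Arrays of different numbers gave r from -0.55 to 0.325. These values do not settle whether the arrays were paired.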

Additional observations from a re-analysis of the deposited data

How the results depend on the processing

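With each array centred on its median, with repeated quantile normalization, or with genes above the median gene mean alone, limma called 3 genes, with array weights 1, with an intensity trend in eBayes 2, and with the stress list as covariate 49; the cause was not tested. With the replicate number as a block it called 98. Leaving out single arrays gave 0 to 540 called genes (540 without Htt siRNA replicate 2, 1 without scramble replicate 1), 717 to 1731 higher and 687 to 1720 lower genes at an unadjusted p under 0.05; among genes above the median gene mean 517 were higher, from the 11090 genes tested. For the 7 members other than Sgk1 the adjusted p stayed above the threshold in every alternative run, the block included. Signs held except for Per1 (-0.18 to 0.05 without single arrays) and Zbtb16 (-0.032 to 0.18); Sgk3 and Zbtb16 were not in the fit above the median gene mean. No other alternative changed a sign of a member. The adjusted p of Htt ranged from 0.00778 to 0.348. With array weights 8 further glucocorticoid-responsive genes, 5 SGK partners and 3 chaperones or cofactors were lower at an unadjusted p under 0.05, in place of 5, 3 and 1. Signals near the background limit what Sgk3 and Zbtb16 can show.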
